A study of Mus musculus with 39 samples.

Results

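The transcripts described here are those of the mouse mitochondrial genome, chosen as every gene whose symbol begins with mt-. They number 37 of the 45232 genes counted in each library: 13 coding genes, 2 ribosomal RNAs (rRNAs) and 22 transfer RNAs (tRNAs). They were measured by poly-A RNA sequencing on an Ion Torrent Proton in quadriceps muscle and epididymal white adipose tissue (eWAT) of male C57BL/6 mice that were 22 weeks old. The groups differed in the diet of a single juvenile week, weeks 6 to 7, which was either a high-fat diet (HFD, 45% of calories from fat) or a control diet (CD, 10%). They also differed in whether the mice were fasted for 16 h before collection or fed. All groups had chow before and after that week and then, from week 10, the same high-fat diet until collection, so the CD mice were also on a high-fat diet as adults. Quadriceps gave 6 HFD fasted, 4 HFD fed, 6 CD fasted and 4 CD fed libraries, and eWAT gave 5 HFD fasted, 4 HFD fed, 6 CD fasted and 4 CD fed libraries. The design asks what a short juvenile exposure to fat leaves behind in adult tissue, also in how that tissue reacts to a fast. Whether the libraries of a group are separate animals is not in the labels, so a p-value here weighs only the spread between libraries, which may be technical. Nor do the labels say whether both tissues came from the same mice, and the comparisons of tissues treat the 39 libraries as independent.

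The mitochondrial genome is a small circle, present in many copies per cell, that codes for subunits of the respiratory chain complexes I, III and IV and of ATP synthase, and for the rRNAs and tRNAs that translate them. Its heavy and light strands are transcribed as long precursors by the polymerase Polrmt with the factors Tfam and Tfb2m, and the precursors are processed at the tRNAs that lie between the other genes. Mature mRNAs and rRNAs receive short poly(A) tails, except ND6 mRNA, the light-strand mRNA, which in human cells has little or no tail. Skeletal muscle depends on these complexes for sustained work, and white adipocytes hold fewer mitochondria.

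Copies of mitochondrial DNA lie in the nuclear genome, and a read that fits both places cannot be counted for either gene when only reads with a single alignment are kept. Of the 13 coding genes, 5 are covered almost whole by a block on chr1:24611535-24616197 that is annotated as unprocessed pseudogenes. These 5 are mt-Co2, mt-Atp6, mt-Co3, mt-Nd3 and mt-Nd4l, and between 97.6% and 99.9% of their 100-base stretches occur identically in a nuclear transcript. The share was 60.8% for mt-Nd4, 30.8% for mt-Co1 and 3.19% for mt-Nd2. No 100-base stretch was shared in the other 5 coding genes or in the rRNAs. Only annotated nuclear transcripts were searched, so a nuclear copy outside them, also between the pseudogenes of the block, would be missed. The next sequences show how closely the block follows the mitochondrial gene where the results below turn on it. They are transcript sequences of GENCODE release M21 on GRCm38, written 5′ to 3′ on the strand of the gene. The first bases of mt-Co2 (chrM:7013-7102, plus strand) and of its copy Gm28661 (chr1:24615476-24615565, minus strand) were the same, with the start codon in capitals.
mt-Co2: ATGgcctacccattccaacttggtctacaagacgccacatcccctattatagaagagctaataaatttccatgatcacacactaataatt
Gm28661: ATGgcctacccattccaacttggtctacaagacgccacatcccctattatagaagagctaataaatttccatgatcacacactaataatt
Over 681 aligned bases this copy held 0 differences from mt-Co2. The copy of mt-Nd3 (chrM:9459-9548, plus strand), Gm28438 (chr1:24613030-24613119, minus strand), held 1 difference over 345 aligned bases, T3C, counted from the first base of mt-Nd3 and shown in capitals.
mt-Nd3: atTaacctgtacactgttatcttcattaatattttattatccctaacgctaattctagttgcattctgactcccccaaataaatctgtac
Gm28438: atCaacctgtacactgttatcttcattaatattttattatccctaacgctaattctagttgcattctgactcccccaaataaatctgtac
The block ends within mt-Co1, of which Gm29216 carries the last 492 bases. The stretch from base 1054 of mt-Co1 (chrM:6381-6440, plus strand) and the first bases of Gm29216 (chr1:24616138-24616197, minus strand) held all 6 differences, which are in capitals.
mt-Co1: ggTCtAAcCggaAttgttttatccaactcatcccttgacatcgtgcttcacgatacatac
Gm29216: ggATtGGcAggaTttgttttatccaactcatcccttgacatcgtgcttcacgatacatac
These are T1056A, C1057T, A1059G, A1060G, C1062A and A1066T, counted from the first base of mt-Co1.

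Members also overlap each other. The last 43 bases of mt-Atp8 (chrM:7766-7969, plus strand), a small ATP synthase subunit, are the first bases of mt-Atp6, which encodes subunit a of the same enzyme. In the block on chromosome 1, the annotated copies of mt-Atp6 (chr1:24613974-24614651) and mt-Co2 (chr1:24614885-24615565) leave a gap where mt-Atp8 would lie. The sequence of that gap was not searched. The whole of mt-Atp8 is shown because, unlike mt-Atp6, it holds no 100-base stretch of an annotated nuclear transcript. The bases shared with mt-Atp6 are in capitals.
mt-Atp8: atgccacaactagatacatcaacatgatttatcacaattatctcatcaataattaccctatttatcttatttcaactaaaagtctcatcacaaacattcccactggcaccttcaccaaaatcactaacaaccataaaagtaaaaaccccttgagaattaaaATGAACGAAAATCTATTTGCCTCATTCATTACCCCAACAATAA
The end of mt-Nd6 (chrM:13552-13641, minus strand), a complex I subunit and the only coding gene of the light strand, runs against the end of mt-Nd5. The 14 bases that mt-Nd5 overlaps on the other strand are in capitals.
mt-Nd6: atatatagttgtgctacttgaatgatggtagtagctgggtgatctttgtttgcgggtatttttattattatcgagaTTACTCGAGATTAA
The strand setting of the counting is not given in the sources used here, so reads of mt-Nd6 and reads of RNA from the other strand across it cannot be told apart. Among the tRNAs, mt-Tm (chrM:3845-3913, plus strand), the methionine tRNA, is shown because it held most of the tRNA reads, with its anticodon in capitals.
mt-Tm: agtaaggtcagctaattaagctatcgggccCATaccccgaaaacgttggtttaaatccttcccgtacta
It ends on the base before mt-Nd2 begins, and no base lies between them.

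Between 6730219 and 14993394 reads were counted on genes per quadriceps library, and between 6199586 and 14596745 per eWAT library. Of these, 195962 to 734153 reads in quadriceps and 51143 to 714704 in eWAT came from the 37 genes. Fast muscle fibre markers summed to between 178000 and 275900 reads per 1000000 counted reads (CPM) in quadriceps. Among the eWAT libraries, the sum of 20 epididymal markers was above 1000 CPM in 13 of 19. These were 4 of 5 HFD fasted, 2 of 4 HFD fed, 3 of 6 CD fasted and 4 of 4 CD fed libraries, so no CD fed eWAT library was poor in epididymal transcripts. The sum of 10 adipocyte markers had a median of 1861 CPM in HFD fasted, 23127 in HFD fed, 27861 in CD fasted and 2170 in CD fed eWAT. The sum of 7 hepatocyte markers was above 10000 CPM in 2 eWAT libraries, both fasted. They were HFD fasted replicate 4, at 121500 CPM, and replicate 1 of CD fasted eWAT, at 29380 CPM. Both were poor in epididymal transcripts. Testis markers summed to 10827 CPM in HFD fasted replicate 1 of eWAT, which had the lowest mitochondrial share of all, and fast muscle fibre markers to 1977 CPM in HFD fed replicate 3 of eWAT. The abundant gene Gm42418 held a median of 15.9% of counted reads in fasted and 13.1% in fed quadriceps, and 5.47% in fasted and 12.5% in fed eWAT. It ranged from 6.98% to 29.2% in fasted and 7.93% to 14.45% in fed quadriceps. In eWAT it ranged from 2.42% to 14.8% in fasted and 5.335% to 16.7% in fed libraries. The difference between fasted and fed in Gm42418 was not tested. The part of these transcripts in the eWAT results was not tested beyond the comparisons below that leave libraries out. In bulk tissue, fewer cells of a type and less RNA per cell cannot be told apart.

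Mitochondrial transcripts took a larger share of the counted reads in quadriceps than in eWAT. The mean share was 3.66% ± 0.75 (SD, n = 20) in quadriceps and 2.18% ± 1.05 (SD, n = 19) in eWAT, a difference of 0.92 on the log2 scale (two-sided permutation p = 1e-05, the smallest that 100000 resamples can give). The eWAT libraries did not form a single range. The 13 whose epididymal markers summed to over 1000 CPM had a mean share of 1.65%, between 0.825% and 2.38%, and the other 6 had a mean of 3.34%, between 1.92% and 4.90%. Against those 6 libraries alone the difference between quadriceps and eWAT was 0.18 on the log2 scale (permutation p = 0.286). Unlike the test over all libraries, the tests against these 6 and against 4 of them below had no strata for diet and feeding. None of the 6 is a CD fed library. The 6 include both libraries rich in hepatocyte transcripts, which had the highest shares of eWAT. The other 4, chosen after seeing the data, had a mean of 2.67%, between 1.92% and 3.20%, and against them the difference was 0.45 (exact permutation p = 0.0114, two-sided). All 3 differences were positive, and their size depended on the eWAT libraries used.

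In quadriceps the share tended lower in fasted mice, but the average over diets did not pass the threshold. In HFD fasted quadriceps the share was lowest at 2.69%, had a median of 3.33% and was highest at 4.90%, and in HFD fed quadriceps it was 3.66%, 3.03%, 4.43% and 4.45%. In CD fasted quadriceps it was lowest at 2.84%, had a median of 3.06% and was highest at 3.89%, and in CD fed quadriceps it was 3.32%, 3.89%, 5.01% and 4.35%. The fasted and fed ranges overlapped after either diet. Fasted quadriceps averaged 3.42% ± 0.73 (SD, n = 12) and fed quadriceps 4.02% ± 0.66 (SD, n = 8), a difference of -0.594 percentage points within diets (exact permutation p = 0.0887, two-sided). After juvenile HFD alone the difference was -0.313 points (exact p = 0.605), and after juvenile CD it was -0.876 points (exact p = 0.0429). Whether these 2 differences differ from each other was not tested on the share. Leaving out CD fed replicate 1, HFD fasted replicate 6 or HFD fed replicate 2 brought the average difference to -0.732, -0.726 or -0.738 points, with exact p of 0.0468, 0.0305 and 0.0462. No other left-out library brought the exact p under 0.05, and over all of them the difference ran from -0.738 to -0.450 points. The percent of listed reads that were counted also moved with fasting, with a median of 29.2% in fasted and 33.1% in fed quadriceps, and the slow fibre marker sum had a median of 217.6 CPM in fasted and 522.9 CPM in fed quadriceps. Adipocyte markers summed to a median of 553.2 CPM in fasted and 346.3 CPM in fed quadriceps. With Gm42418 taken out of the counted reads, the difference in share was -0.512 points (exact p = 0.169). The part of the other measures in the share was not tested.

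Juvenile diet left the share of quadriceps reads without a detectable difference. It averaged 3.71% ± 0.82 (SD, n = 10) after HFD and 3.62% ± 0.70 (SD, n = 10) after CD, which differed by 0.0323 points within feeding states (exact permutation p = 0.915). In eWAT the share was 0.825%, 2.15%, 2.38%, 4.48% and 1.72% in HFD fasted, and 1.46%, 1.92%, 2.82% and 1.25% in HFD fed libraries. In CD fasted eWAT it was lowest at 1.50%, had a median of 2.34% and was highest at 4.90%, and in CD fed eWAT it was 1.43%, 1.87%, 1.70% and 1.48%. The highest value of each fasted eWAT group belonged to the library with abundant hepatocyte transcripts. Fasted eWAT averaged 2.51% ± 1.25 (SD, n = 11) and fed eWAT 1.74% ± 0.49 (SD, n = 8), a difference of 0.748 points (exact p = 0.148), which was 0.255 points (exact p = 0.424) without those 2 libraries. It was 0.262 points (exact p = 0.347) over the 13 libraries rich in epididymal transcripts alone, and 0.665 points (exact p = 0.203) with Gm42418 taken out of the counted reads. Juvenile diet in eWAT gave a difference of -0.0582 points (exact p = 0.893), which was -0.106 points (exact p = 0.732) without the 2 libraries and -0.113 points (exact p = 0.653) over the 13.

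**Figure D1:**
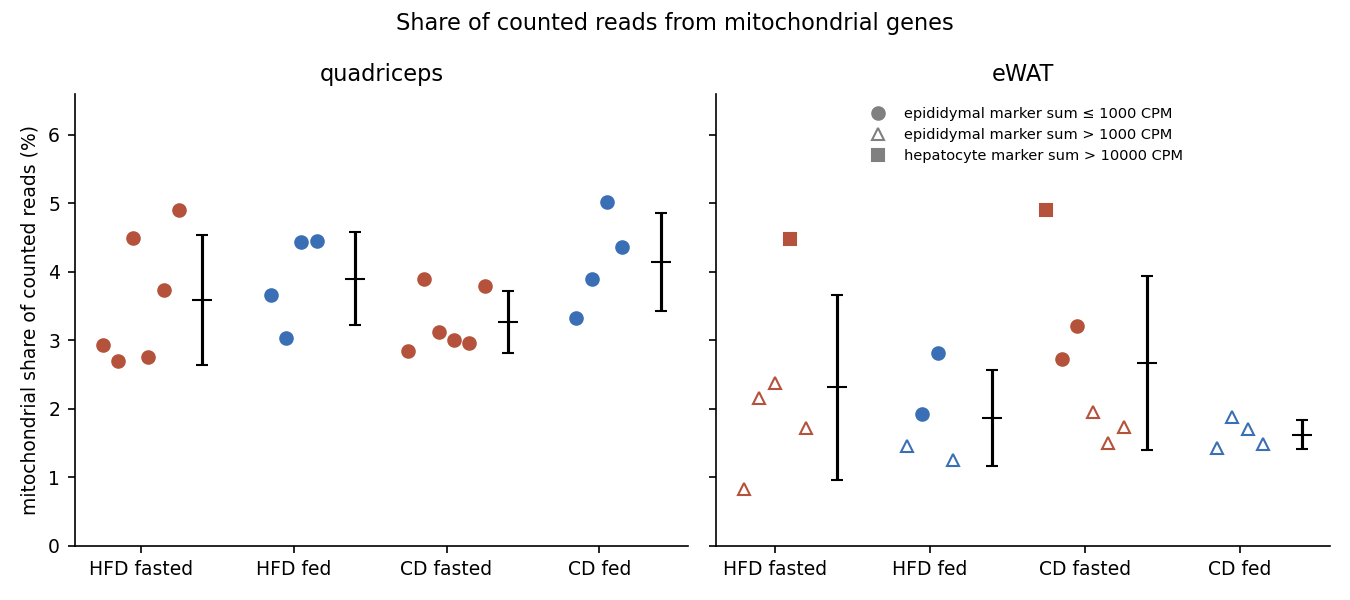
Mitochondrial share of counted reads (percent) in each library by group, in quadriceps (left) and eWAT (right); points are libraries, and bars give the mean and SD of the group. In eWAT, squares mark the 2 libraries with a hepatocyte marker sum above 10000 CPM, which have the highest shares, at 4.48% and 4.90%, and open triangles mark libraries whose epididymal markers summed to over 1000 CPM, none of which passes 2.38%.

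The 13 coding genes were counted very unequally, although the 12 of the heavy strand come from a common precursor. The catalytic subunit of complex IV, mt-Co1, alone held 37.9% ± 2.9 of the coding reads in quadriceps and 39.8% ± 3.0 in eWAT (SD over libraries). It was followed by mt-Cytb, the only mitochondrial subunit of complex III, with 17.0% ± 0.9 in quadriceps and 17.5% ± 1.0 in eWAT. The complex I subunits ran from mt-Nd1, with 14.6% in quadriceps and 12.9% in eWAT, through mt-Nd4 with 11.3% and 10.3%, mt-Nd2 with 8.01% and 6.36% and mt-Nd5 with 7.47% and 8.55%, down to mt-Nd3 and mt-Nd4l. Those last 2 held 0.182% and 0.0701% of coding reads in quadriceps and 0.217% and 0.0514% in eWAT. The order of these 6 was the same in both tissues except for mt-Nd5, which stood above mt-Nd2 in eWAT. The remaining complex IV subunits, mt-Co2 and mt-Co3, held 0.161% and 0.0930% in quadriceps and 0.553% and 0.199% in eWAT, far below mt-Co1.

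Per kilobase of transcript the same split held. In quadriceps mt-Co1 averaged 8496 ± 1520 CPM per kilobase, mt-Nd1 5337 ± 1236, mt-Atp8 5255 ± 1812 and mt-Cytb 5150 ± 985 (SD, n = 20). The means of the last 3 were close. Next came mt-Nd4 at 2905 ± 809 and mt-Nd2 at 2720 ± 749, and then mt-Nd5 at 1451 ± 474 CPM per kilobase. These SDs are between libraries, and the levels of different genes were not tested against each other. The 5 genes that share nearly all of their sequence with nuclear transcripts had levels from 41.4 CPM per kilobase (mt-Co3) to 183 (mt-Nd3), with a median of 81.6, in quadriceps. The other 7 heavy-strand coding genes had levels from 1451 to 8496 CPM per kilobase, with a median of 5150, so the groups did not overlap. In eWAT the 5 genes lay between 35.6 and 232 CPM per kilobase (median 145) and the other 7 between 948 and 5253 (median 2614). The neighbours mt-Atp8 and mt-Atp6, which share a bicistronic mRNA, stood at 5255 and 78.0 CPM per kilobase in quadriceps. Whether mt-Atp8 has a nuclear copy outside the annotated transcripts was not tested. The files list reads aligned to more than 1 place on a summary line and under no gene, so how many of them belong to the 5 genes cannot be read from the counts, and the fold changes of these genes below rest on the reads that were placed. The rRNAs were at 762 ± 272 (mt-Rnr2, of the large ribosomal subunit) and 498 ± 207 CPM per kilobase (mt-Rnr1, of the small subunit) in quadriceps, which in poly-A selected RNA does not measure their abundance in the cell. Lowest of all coding genes was mt-Nd6, at 8.63 ± 6.17 CPM per kilobase in quadriceps and 5.42 ± 4.32 in eWAT.

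**Figure D2:**
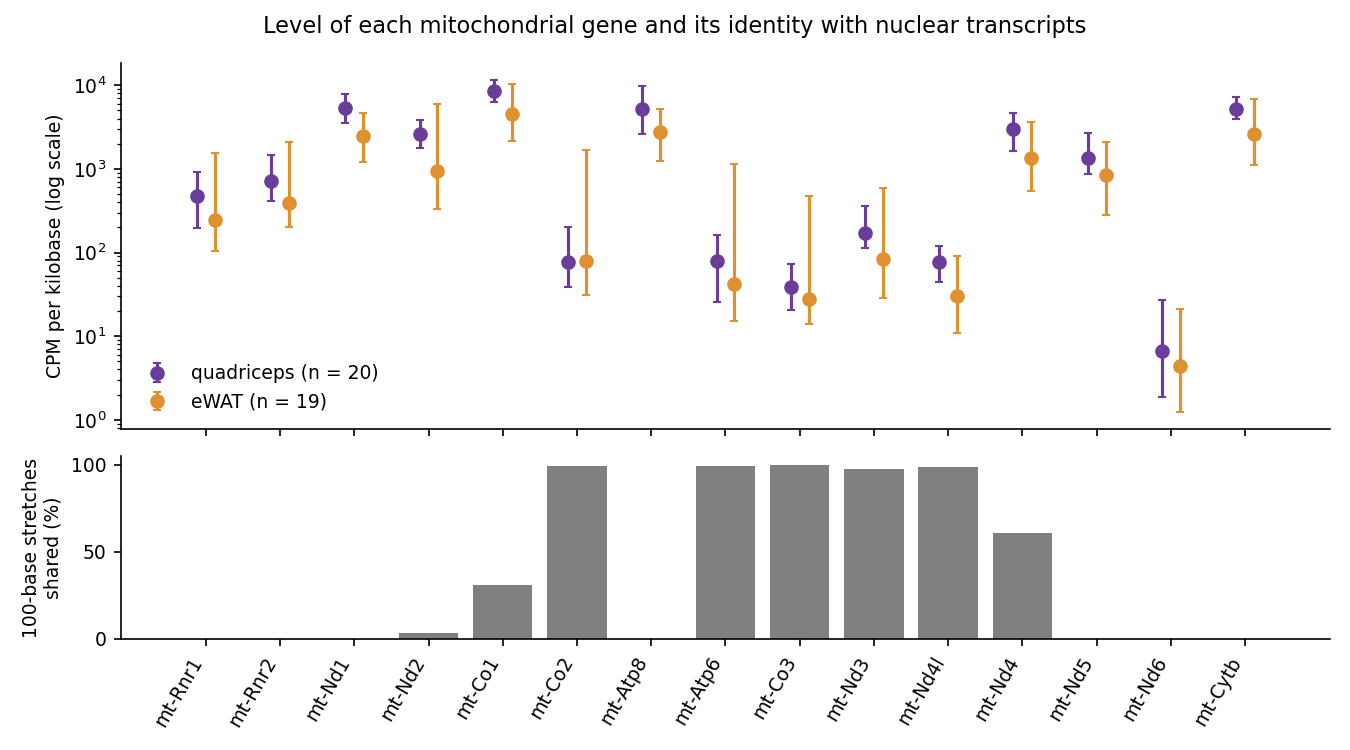
Upper panel, level of each coding gene and rRNA in CPM per kilobase on a log scale, as the median with bars from the lowest to the highest library, in quadriceps (n = 20) and eWAT (n = 19); lower panel, percent of each gene's 100-base stretches that occur in a nuclear transcript. Only annotated nuclear transcripts were searched. The 5 genes near 100% in the lower panel sit far below the other heavy-strand coding genes, and mt-Nd6, with no shared stretch, is the lowest.

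Reads on the tRNAs were few. They made up 0.0496% to 0.207% of mitochondrial reads in quadriceps, and 9 of the 22 tRNAs in quadriceps and 2 of the 22 in eWAT had a read in every library. Of all tRNA reads, mt-Tm held 71.0% in quadriceps and 81.6% in eWAT, with 28.7 ± 13.6 CPM in quadriceps and 24.8 ± 19.3 CPM in eWAT. The means of the other 21 lay between 0.0527 and 3.24 CPM in quadriceps and between 0.00888 and 1.62 CPM in eWAT, led in quadriceps by mt-Tw, the tryptophan tRNA that follows mt-Nd2. After the filter on low counts, 21 members were tested in quadriceps, 17 in eWAT and 22 across tissues.

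Between tissues, the single-gene tests went the same way as the share. Relative to the other genes, 20 of the 22 tested members were higher in quadriceps than in eWAT and none was lower, where 28.1% of all 17083 genes tested were called higher and 54.9% lower. The median log2 fold change was 1.97 over the members and -0.637 over all genes. The highest values among the coding genes were those of 3 complex I subunits, with mt-Nd4l at 2.47 ± 0.21 (log2 ± SE), mt-Nd1 at 2.27 ± 0.18 and mt-Nd2 at 2.21 ± 0.31. Then followed mt-Nd4 and mt-Atp8 at 2.14, mt-Co1 and mt-Cytb at 1.95, mt-Nd5 at 1.90, mt-Rnr1 at 1.76, mt-Rnr2 at 1.74, mt-Nd6 at 1.73 and mt-Nd3 at 1.65, and all of these passed the threshold. Of the tRNAs, mt-Ts2 (a serine tRNA) was at 3.70, mt-Tl1 and mt-Tn at 2.83, mt-Tw at 2.27, mt-Td at 2.09, mt-Ti at 1.99 and mt-Tm at 1.41, all past the threshold. The smallest differences were in mt-Co3, at 0.97 ± 0.32 (adjusted p = 0.00634), and in mt-Atp6 (0.74 ± 0.43, adjusted p = 0.107) and mt-Co2 (0.22 ± 0.39, adjusted p = 0.601), which did not pass. The scale of these values depends on the scaling. With plain library sizes in place of TMM, mt-Nd1 was at 1.09 and 16 members were called, counting both directions. There mt-Co2 was lower in quadriceps, at -0.90 (adjusted p = 0.0195). Against the 6 eWAT libraries with little epididymal RNA, 15 members were called, counting both directions. Of these, mt-Co2, mt-Atp6 and mt-Co3 were lower in quadriceps, at -1.81, -1.33 and -0.81 (adjusted p = 2.96e-05, 0.00133 and 0.0243). Against the 4 of these that were also poor in hepatocyte transcripts, 18 of 21 tested members were called higher and none lower, and mt-Co2 at -0.44, mt-Atp6 at -0.10 and mt-Co3 at 0.39 did not pass (adjusted p = 0.202, 0.800 and 0.209). With those 2 libraries left out, none of the 3 genes was called lower in quadriceps on TMM scaling. The share of all genes called was not computed for the settings with 16, 15 and 18 called members. These counts therefore have no background beside them.

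Fasting lowered 2 complex I transcripts in quadriceps, mt-Nd2 and mt-Nd4, and passed the threshold for no other member. In fasted quadriceps mt-Nd2 was lowest at 1677 CPM on scaled library sizes, had a median of 2296 and was highest at 3432 (n = 12), and in fed quadriceps it was lowest at 2453, had a median of 3506 and was highest at 4050 (n = 8). The ranges overlapped, with 8 of 12 fasted libraries below the lowest fed one and 5 of 8 fed libraries above the highest fasted one. The log2 fold change of mt-Nd2 was -0.44 ± 0.11 (SE), a level 1.36-fold lower in fasted mice (edgeR quasi-likelihood test, adjusted p = 0.00222 over 12213 genes). It passed the threshold with each of the 20 libraries left out in turn, at adjusted p from 0.00061 to 0.00899. It also passed in 7 of 8 other settings, among them the slow fibre marker sum as a covariate. In fasted quadriceps mt-Nd4 was lowest at 2735 CPM, had a median of 3255 and was highest at 5129, and in fed quadriceps it was lowest at 3165, had a median of 4644 and was highest at 5689. Its log2 fold change was -0.32 ± 0.12, or 1.25-fold lower (adjusted p = 0.0301). This call was the weaker, held with 12 of 20 libraries left out, and was lost with the percent of reads counted as a covariate (-0.18, adjusted p = 0.239), where mt-Nd2 stayed past the threshold at -0.35 (adjusted p = 0.0192). With all 39 libraries in 1 fit, which takes a common spread for both tissues, neither passed (adjusted p = 0.558 for mt-Nd2 and 0.527 for mt-Nd4).

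These 2 calls of 21 members tested stand against 18.4% of all genes called lower and 19.2% called higher by fasting in quadriceps, so the share of called members was not above the background. The count was 5 without CD fasted replicate 6 or without HFD fasted replicate 6, and 1 without CD fasted replicate 5, CD fed replicate 2, HFD fasted replicate 1 or 4, or HFD fed replicate 1, 3 or 4. At an unadjusted p under 0.05, 4 members were lower and none higher, where 5596 of all 12213 genes passed in either direction. DESeq2 called 3 and limma voom 7. Of the 21, 17 had a negative log2 fold change, with a median of -0.18, where the median of all genes was -0.019. The other complex I transcripts were mt-Nd1 at -0.22 ± 0.11 (adjusted p = 0.117), mt-Nd3 at -0.17, mt-Nd4l at -0.21, mt-Nd5 at -0.18 and mt-Nd6 at 0.19, none of which passed. In complex III, mt-Cytb was at -0.15 ± 0.10 (adjusted p = 0.244). Among complex IV transcripts mt-Co1 was at -0.06 ± 0.09 (adjusted p = 0.643), mt-Co3 at -0.07, and mt-Co2 at -0.49 ± 0.19 with an adjusted p of 0.0519. The ATP synthase transcripts mt-Atp6 and mt-Atp8 were at -0.06 and -0.08. The 3 most abundant tRNAs, mt-Tm, mt-Tw and mt-Ts2, were at -0.52 (adjusted p = 0.187), -0.31 (adjusted p = 0.620) and -0.42 (adjusted p = 0.236).

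**Figure D3:**
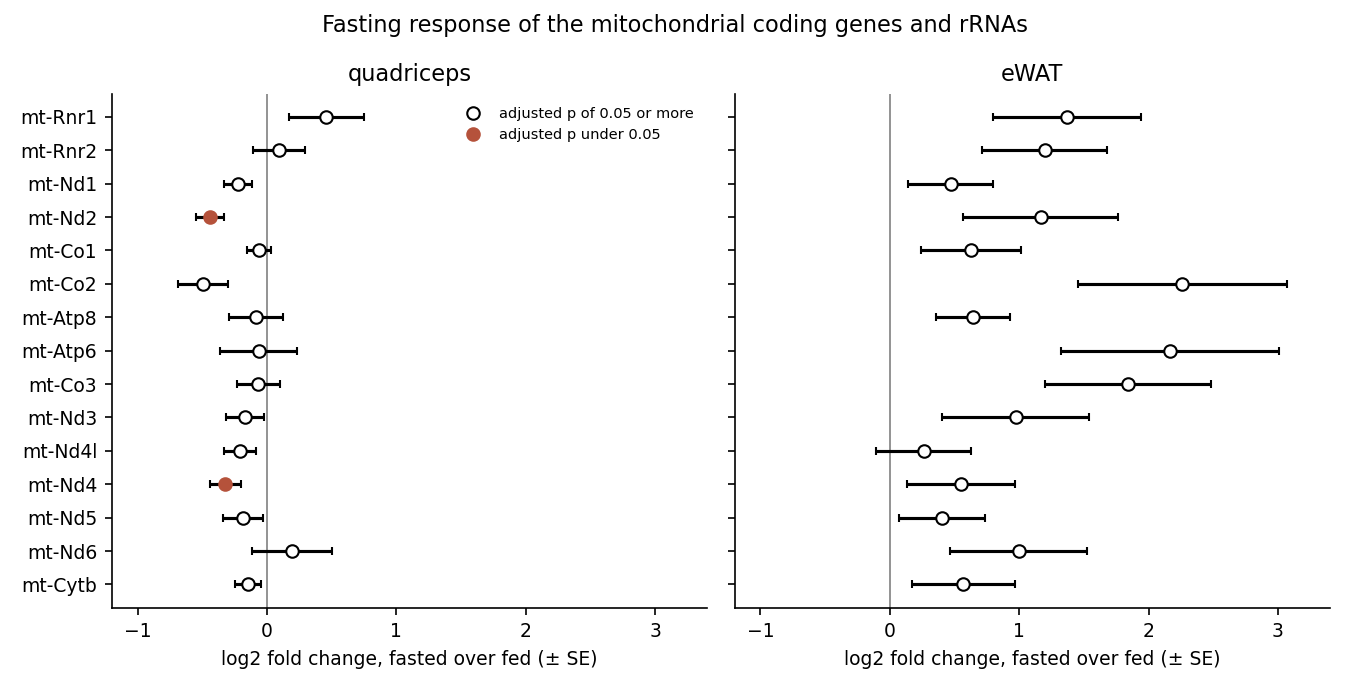
Log2 fold change of fasted over fed with its SE, as the average over juvenile diets, for the coding genes and rRNAs in genome order, in quadriceps (left) and eWAT (right); filled points passed an adjusted p of 0.05. In quadriceps most points lie a little below 0 and only mt-Nd2 and mt-Nd4 are filled; in eWAT all 15 lie above 0 with wide bars and none is filled.

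The rRNAs leaned away from the mRNAs in fasted quadriceps, within the spread. The log2 fold change was 0.46 ± 0.29 for mt-Rnr1 (adjusted p = 0.226) and 0.09 ± 0.20 for mt-Rnr2 (adjusted p = 0.757). A ratio within the mitochondrial reads leaves out the reads of other genes. There were 3.26 rRNA reads per 100 coding reads in the lowest fasted library, 5.17 in the median and 8.58 in the highest. In the lowest, median and highest fed library there were 3.04, 4.26 and 4.90. The part of poly-A selection, and of the Gm42418 share, in this ratio was not tested. The log2 ratio of rRNA to coding reads was 0.34 higher in fasted quadriceps (exact permutation p = 0.0685) and 0.35 higher in fasted eWAT (exact p = 0.0861). Leaving out CD fasted replicate 6 or HFD fasted replicate 3 brought the quadriceps value to 0.40 (exact p = 0.0299) or 0.41 (exact p = 0.0238), and leaving out CD fed replicate 2 brought the eWAT value to 0.41 (exact p = 0.0361). No other left-out library brought the exact p under 0.05 in its tissue. Over all left-out libraries the difference in log2 ratio ran from 0.27 to 0.41 in quadriceps and 0.25 to 0.42 in eWAT. In eWAT it was 0.22 (exact p = 0.189) without the 2 libraries rich in hepatocyte transcripts.

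By juvenile diet, fasting lowered no member past the threshold in quadriceps after HFD, and lowered 3 after CD: mt-Co2, mt-Nd2 and mt-Nd4. The level of mt-Co2, the complex IV subunit that receives electrons from cytochrome c, was 47.8, 60.6, 42.0, 44.1, 58.5 and 69.2 CPM in HFD fasted and 51.9, 55.5, 45.9 and 63.0 CPM in HFD fed quadriceps. It was 45.5, 49.5, 34.6, 28.1, 25.2 and 62.4 CPM in CD fasted and 85.3, 133.5, 44.7 and 60.6 CPM in CD fed quadriceps. The HFD fed range lay within the HFD fasted one, while 3 of the 6 CD fasted libraries lay below every CD fed library and the highest CD fasted value lay above 2 of the 4 CD fed values. The log2 fold change of mt-Co2 was -0.01 ± 0.28 after HFD (adjusted p = 0.990) and -0.98 ± 0.27 after CD (adjusted p = 0.0140). That of mt-Nd2 was -0.33 ± 0.16 after HFD (adjusted p = 0.136) and -0.55 ± 0.16 after CD (adjusted p = 0.0111). That of mt-Nd4 was -0.17 ± 0.17 after HFD (adjusted p = 0.525) and -0.48 ± 0.16 after CD (adjusted p = 0.0349). After HFD 9.7% of all genes were called lower and 11.7% higher, and after CD 10.4% lower and 12% higher. At an unadjusted p under 0.05, 1 member was lower after HFD, mt-Nd2, where 4057 of all 12213 genes passed in either direction. DESeq2 called 0 there and limma voom 1. With CD fed replicate 2 left out, 1 member was called after CD, and with CD fasted replicate 6 left out, 7 were. The slow fibre marker sum was 33.0, 1057, 2044 and 998 CPM in CD fed quadriceps, against 36.1 to 386 CPM in CD fasted.

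The difference between the diets in the fasting response was itself tested and called no member, and no gene of the 12213. All 21 members had a positive interaction term, which means a less negative or more positive fasting response after HFD, with a median of 0.403 on the log2 scale where the median of all genes was 0.0111. By edgeR, mt-Co2 was at 0.98 ± 0.39 (unadjusted p = 0.0225, adjusted p = 1.00) and mt-Co3 at 0.84 ± 0.33 (unadjusted p = 0.0188, adjusted p = 1.00). These 2 were the only members at an unadjusted p under 0.05, where 300 of all 12213 genes passed. DESeq2 and limma voom called 0. The members come from shared precursors and shared libraries, so their common sign is not 21 separate observations.

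Juvenile diet changed no member of quadriceps past the threshold, and nearly no gene at all: 0.00819% of genes were called higher and 0.0164% lower. The member with the largest difference was mt-Nd6, the light-strand mRNA. In HFD quadriceps it had a lowest value of 0.976 CPM, a median of 2.35 and a highest of 5.13 (n = 10), and in CD quadriceps a lowest of 2.66, a median of 6.22 and a highest of 13.8 (n = 10). The ranges overlapped, with 6 of 10 HFD libraries below the lowest CD library and 6 of 10 CD libraries above the highest HFD library. The log2 fold change was -1.44 ± 0.31, or 2.71-fold lower after juvenile HFD (edgeR unadjusted p = 0.000163, adjusted p = 0.191 over all genes). DESeq2 gave -1.46 with an adjusted p of 0.0150, its only call among the members, and limma voom called 0. In fasted mice alone the edgeR value was -1.14 ± 0.39 (adjusted p = 0.590) and in fed mice alone -1.74 ± 0.48 (adjusted p = 1.00). By leaving out each of the 20 libraries in turn the edgeR value ran from -1.58 to -1.11, with adjusted p from 0.0506 to 0.443. These values rest on 11 to 175 reads per library.

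As a single value, CPM of mt-Nd6 on plain library sizes differed between the juvenile diets in quadriceps by -4.26 CPM within feeding states (exact permutation p = 0.000217), a test chosen after its values were seen. The 8 light-strand tRNAs together, which share its precursor, differed by -0.0673 CPM (exact p = 0.886), with 10 to 43 reads per library. In eWAT mt-Nd6 differed by 0.0615 CPM (exact p = 0.973). The difference between tissues in the juvenile diet response called 0 of 22 members by edgeR, where no gene was called. Of the members only mt-Nd6 was at an unadjusted p under 0.05, as were 591 of all 17083 genes. It stood at -1.74 ± 0.61 (adjusted p = 1.00). For juvenile diet in quadriceps, 1058 of all 12213 genes were at an unadjusted p under 0.05. The remaining quadriceps members at that level numbered 3, all with positive values and none past the threshold. They were mt-Tw at 1.31 ± 0.45, mt-Ts2 at 0.63 ± 0.27 and mt-Nd4l at 0.27 ± 0.13, with edgeR adjusted p of 0.455, 0.532 and 0.559; mt-Tm was at 0.47 ± 0.30 (adjusted p = 0.684). The rRNAs parted, with mt-Rnr2 at 0.41 ± 0.20 (adjusted p = 0.582) and mt-Rnr1 at -0.36 ± 0.28 (adjusted p = 0.749). Their summed ratio to coding reads differed by 0.05 (exact p = 0.773). The other coding genes lay between -0.10 (mt-Co2) and 0.29 (mt-Nd5), with mt-Atp6 at -0.02, mt-Nd1 at 0.02, mt-Nd4 at 0.05, mt-Cytb at 0.07, mt-Nd3 and mt-Co1 at 0.08, mt-Co3 at 0.09, mt-Atp8 at 0.13 and mt-Nd2 at 0.14.

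**Figure D4:**
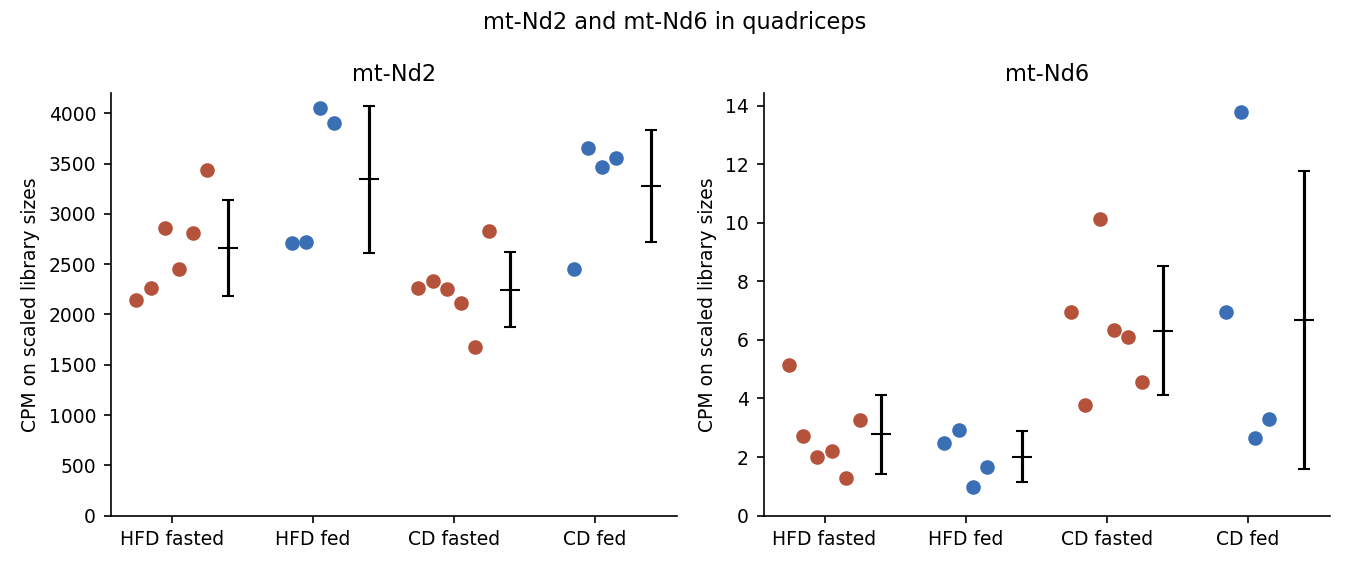
Level of mt-Nd2 (left) and mt-Nd6 (right) in each quadriceps library, in CPM on scaled library sizes, by group; points are libraries, and bars give the mean and SD. For mt-Nd2 the fasted points lie mostly below the fed points after either diet, and for mt-Nd6 the points after HFD, at most 5.13 CPM, lie mostly below those after CD, which start at 2.66 CPM.

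In eWAT, all 17 tested members were higher in fasted than in fed mice on average, with a median log2 fold change of 0.973, and none passed the threshold. No gene of the 16603 tested passed in this contrast, and the median of all genes was 0.0619. At an unadjusted p under 0.05, 7 members were higher, where 1448 of all 16603 genes passed in either direction. DESeq2 and limma voom called 0. The largest fold changes were those of mt-Co2 (2.26 ± 0.81), mt-Atp6 (2.17 ± 0.84) and mt-Co3 (1.84 ± 0.64), each with an adjusted p of 0.550. Then came mt-Rnr1 at 1.37, mt-Tw at 1.35, mt-Rnr2 at 1.20, mt-Nd2 at 1.17, mt-Nd6 at 0.99, mt-Nd3 at 0.97, mt-Atp8 at 0.64, mt-Co1 at 0.63, mt-Cytb at 0.57, mt-Tm at 0.56, mt-Nd4 at 0.55, mt-Nd1 at 0.47, mt-Nd5 at 0.40 and mt-Nd4l at 0.26. Without the 2 libraries rich in hepatocyte transcripts, mt-Co2 was at 0.80 (adjusted p = 0.894), mt-Nd2 at 0.02 and mt-Nd4 at -0.03. Taken by diet, fasting called 0 members in eWAT after HFD and 0 after CD, also by DESeq2 or limma voom. At an unadjusted p under 0.05 were 2 and 4 members, against 3170 and 2572 of all 16603 genes. Juvenile diet called 0 of the 17 in eWAT and no gene at all. No member reached an unadjusted p under 0.05, where 282 of all 16603 genes did. For juvenile diet DESeq2 and limma voom also called 0. Its log2 fold changes in eWAT were -0.38 for mt-Co3, -0.15 for mt-Nd5 and -0.03 for mt-Co2, and the positive ones ran through 0.08 for mt-Nd4, 0.11 for mt-Nd4l, 0.12 for mt-Atp8, 0.20 for mt-Nd1, 0.23 for mt-Atp6, 0.25 for mt-Co1, 0.29 for mt-Cytb, 0.30 for mt-Nd6 and 0.32 for mt-Nd2. Above these stood mt-Rnr2 at 0.47, mt-Rnr1 at 0.56, mt-Nd3 at 0.60, mt-Tm at 0.83 and mt-Tw at 1.02, all with an adjusted p of 1.00. Without the 2 libraries rich in hepatocyte transcripts juvenile diet again called 0 members in eWAT, as did fasting after either diet and on average, and mt-Co2 was at -0.38, mt-Nd2 at -0.06, mt-Nd4 at -0.20 and mt-Nd6 at -0.48, each with an edgeR adjusted p of 1.00; the last 3 were positive with all libraries. The interaction of diet and fasting in eWAT also called 0 members, where 2.6% of all genes were called higher and 5.82% lower. DESeq2 and limma voom called 0 members too. At an unadjusted p under 0.05 were 0 members and 4143 of all 16603 genes.

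The high eWAT values of mt-Co2 belonged to a few fasted libraries. It had 21.2, 76.0, 100.2, 764.4 and 23.6 CPM in HFD fasted eWAT, against 32.6, 73.4, 127.8 and 22.0 CPM in HFD fed eWAT. In CD fasted eWAT it had 1178, 371.7, 191.7, 62.5, 40.9 and 40.0 CPM, against 45.1, 37.8, 31.3 and 53.9 CPM in CD fed eWAT. The libraries at 764.4 and 1178 CPM are the 2 rich in hepatocyte transcripts, and the fasted and fed ranges overlapped after either diet. Set against mt-Cytb, which has no 100-base stretch in common with a nuclear transcript, mt-Co2 had 14.6 reads per 100 mt-Cytb reads in CD fasted replicate 1, 9.14 in CD fasted replicate 2, 6.03 in HFD fasted replicate 4 and 4.04 in CD fasted replicate 3. All 4 of these had an epididymal marker sum under 1000 CPM; the other two such libraries, HFD fed replicates 2 and 3, had 1.99 and 2.64. Over all 19 eWAT libraries the ratio ran from 0.760 to 14.6 with a median of 2.08, and over the 20 quadriceps libraries from 0.554 to 2.31 with a median of 0.901. The percent of listed reads that aligned to more than 1 place was 16.0%, 5.88%, 12.7% and 7.03% in those 4 eWAT libraries, against 3.49% to 7.43% over quadriceps. The values of 5.88% and 7.03% thus lay within the quadriceps range. The median over all 19 eWAT libraries was 4.78%. HFD fasted replicate 2 of eWAT, at 7.34%, had 2.21 mt-Co2 reads per 100 mt-Cytb reads. Reads counted on the nuclear copies themselves were few in quadriceps, at 16.2 to 30.8 CPM over the 7 genes of the block on chromosome 1, and 3.71 to 167 CPM in eWAT. How far placement of reads between the 2 genomes sets the mt-Co2 values was not tested.

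**Figure D5:**
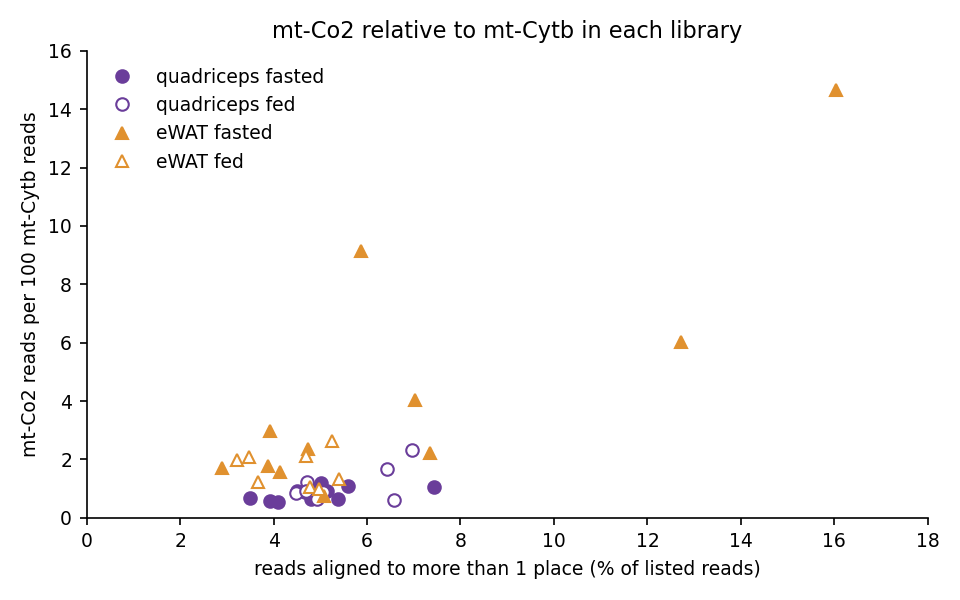
Reads of mt-Co2 per 100 mt-Cytb reads (vertical axis) against the percent of listed reads aligned to more than 1 place (horizontal axis) in each library; filled symbols are fasted and open symbols fed, circles are quadriceps and triangles eWAT. The 4 libraries above 4 reads per 100 are all fasted eWAT libraries, and 2 of them, at 12.7% and 16.0%, have the highest percent of reads aligned to more than 1 place.

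The fasting response of mt-Co2 differed between the tissues, by -2.81 ± 0.79 on the log2 scale for quadriceps minus eWAT (adjusted p = 0.0463 over 17083 genes). It was the only 1 of 22 members called in that test, in which 0.942% of all genes were called lower and 1.79% higher. All 22 were negative, with a median of -1.05 where the median of all genes was -0.119. Of the 22, 11 reached an unadjusted p under 0.05, as did 2753 of all 17083 genes in either direction. DESeq2 called 2 and limma voom 3. The call held in 4 of 7 other settings. It passed with 10 of the 39 libraries left out in turn, at -3.11 to -1.81 and adjusted p from 0.0202 to 0.125 over the 39, and without the 2 libraries rich in hepatocyte transcripts the difference was -1.24 (adjusted p = 0.224). This test pools the spread of both tissues, which was unequal, with an edgeR biological coefficient of variation of 0.203 for quadriceps and 0.779 for eWAT when each was fitted alone. The other members ran from -0.51 (mt-Nd4l) to -2.33 (mt-Td).

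Nuclear genes that copy and transcribe the mitochondrial genome, or process and translate its RNA, were called by fasting in quadriceps about as often as other genes. Of 130 such genes tested, 16 (12.3%) were higher and 27 (20.8%) lower in fasted mice, where 19.2% of all genes were higher and 18.4% lower. In all, 33.1% of the 130 were called, against 37.6% of all genes, so the count was not above the background. Among 20 genes for copying and transcription, 6 (30.0%) were higher and 2 (10.0%) lower, with a median log2 fold change of 0.142. Polrmt, the mitochondrial RNA polymerase, was at 0.46 ± 0.10 (adjusted p = 0.000376), and Tfam, which packages the genome and starts transcription, at 0.21 ± 0.08 (adjusted p = 0.0455). Tfb2m, the other initiation factor, was at 0.08 ± 0.08 (adjusted p = 0.495). Lrpprc, which stabilises mitochondrial mRNAs, was at 0.20 ± 0.10 (adjusted p = 0.137). It stood in a list of 24 RNA processing genes, of which 3 (12.5%) were higher and 4 (16.7%) lower, with a median of 0.0277. In that list Mrm1, an rRNA methyltransferase, had the most negative log2 fold change, at -1.12 ± 0.18 (adjusted p = 1.15e-05).

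Of the 77 tested genes of the mitochondrial ribosome, 18 (23.4%) were lower and 4 (5.19%) higher in fasted mice, with a median of -0.163. The share called lower was near the 18.4% of all genes, and the share called higher was below the 19.2% of all genes. Mrpl12, a large-subunit protein, was at -0.53 ± 0.11 (adjusted p = 0.000225), while Mrpl41, of the same subunit, was at 0.78 ± 0.10 (adjusted p = 6.22e-07). Among 9 regulators, 3 (33.3%) were higher and 3 (33.3%) lower, with a median of 0.117, against 19.2% and 18.4% of all genes. Ppargc1a, the coactivator PGC-1α that raises mitochondrial gene expression, was at -0.82 ± 0.14 (adjusted p = 4.47e-05), and its relative Pprc1 at 0.57 ± 0.10 (adjusted p = 6.70e-05). Juvenile diet called 0 of the 130 in quadriceps, also by DESeq2 and limma voom. Of the 130, 17 were at an unadjusted p under 0.05, as were 1058 of all 12213 genes. Tfam was at 0.14 (adjusted p = 0.647), Polrmt at 0.07 (0.853), Tfb2m at 0.16 (0.608) and Lrpprc at 0.05 (0.918, all adjusted p). In eWAT 0 of 131 were called by edgeR, DESeq2 or limma voom. At an unadjusted p under 0.05 were 10 for fasting and 9 for juvenile diet, against 1448 and 282 of all 16603 genes. The fasting values were 0.29 for Tfam, 0.08 for Polrmt, 0.15 for Tfb2m and 0.27 for Lrpprc.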

How the data were processed

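RNA was measured in 39 libraries, 20 of quadriceps and 19 of eWAT. The authors deposited raw read counts per Ensembl gene, 1 file per library. The build was GRCm38, and HTSeq 0.6.0, Bowtie2 2.2.5 and TopHat2 2.1.0 are the tools named, per the submitters' processing notes. The minimum alignment quality is not given in the sources used here, nor are the strand setting and the annotation release. The 5 summary lines of each file were left out of library sizes; counted reads were 18.4% to 39.9% of the reads listed. Gene symbols and transcript sequences come from GENCODE release M21, in which 44585 of 45232 identifiers had a symbol. Shared stretches of 50 or 100 bases were found by exact match between mitochondrial and annotated nuclear transcripts, and the rest of the nuclear genome was not searched.

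Counts were filtered with filterByExpr, scaled by TMM and tested with edgeR 4.0.16 (quasi-likelihood, robust, 1 mean per group) in each tissue, and over all 39 libraries for comparisons of tissues. Comparisons of quadriceps with the eWAT libraries poor in epididymal transcripts took 1 mean per tissue, and their permutation tests had no strata. P-values were adjusted by Benjamini-Hochberg across every gene of a fit, with a threshold of 0.05. Shares and ratios per library were compared by two-sided exact permutation within the other factor, and between tissues by 100000 resamples. Scaled CPM use TMM library sizes; shares, CPM per kilobase and marker sums use plain library sizes. Single values per library came from reads without molecular identifiers, and the SDs, SEs and p-values rest on the spread between libraries. Among 79 pairs of libraries of a group, 0 were identical. DESeq2 1.42.0, limma 3.58.1 (voom), other scalings and filters, covariates and left-out libraries were alternatives; the quadriceps covariates, the 4 eWAT libraries poor in epididymal and hepatocyte transcripts, plain library sizes and the leaving out of hepatocyte-rich libraries in tissue comparisons, the ratios within coding reads and the mt-Nd6 and light-strand sums were chosen after seeing the data. The edgeR fit of the average fasting contrast in quadriceps was run on simulated counts with known changes, and the other tests were not.

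All coding genes and rRNAs are named in each average contrast, with tRNAs past the threshold or among the 3 most abundant; of the nuclear lists, up to 3 per direction with the smallest p, and Tfam, Polrmt, Tfb2m and Lrpprc. Other genes named were chosen after their values were seen. The members and lists were chosen with earlier results of these data known.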

Additional observations from a re-analysis of the deposited data

Results flagged for a closer look

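Among 136 group-wise sets of 4 to 6 libraries, 24 held a library far from the rest of its group, each by scaled CPM of 1 member. The rule flags about 1 in 20 separate sets of normal values by chance. These sets reuse the same 39 libraries, so their count cannot be set against that rate. Of the 24, 12 were in eWAT HFD fasted replicate 4, the library with the highest hepatocyte marker sum (121500 CPM). It stood above its group with 7951 CPM of mt-Nd1, 8560 of mt-Nd2, 203.7 of mt-Nd3, 7501 of mt-Nd4 and 19.5 of mt-Nd6 among complex I transcripts. Its complex III and IV transcripts were at 12680 CPM for mt-Cytb, 27040 for mt-Co1, 764.4 for mt-Co2 and 156.5 for mt-Co3. It also had 473.4 CPM of mt-Atp6, 2626 of mt-Rnr1 and 5910 of mt-Rnr2.

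A further 6 were in eWAT CD fasted replicate 1, whose hepatocyte marker sum was 29380 CPM. It stood above its group with 4303 CPM of mt-Nd1, 6334 of mt-Nd2, 209.0 of mt-Nd3, 1178 of mt-Co2, 384.8 of mt-Co3 and 810.5 of mt-Atp6. The part of hepatocyte RNA in these levels was not tested.

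The remaining 6 were in quadriceps. HFD fasted replicate 6 was above its group with 119.4 CPM of mt-Nd3 and 54.5 of mt-Co3, and CD fasted replicate 6 with 44.6 of mt-Co3. CD fed replicate 1 was below its group with 2453 CPM of mt-Nd2, HFD fed replicate 1 with 58.0 of mt-Nd3 and CD fasted replicate 5 with 1707 of mt-Nd5. Without CD fed replicate 1 the fasting call of mt-Nd2 held.

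The fasting response of mt-Co2 differed between tissues by -2.81 on the log2 scale for quadriceps minus eWAT, by a test of the difference itself (edgeR adjusted p = 0.0463). It passed the threshold with 10 of the 39 libraries left out in turn, at -3.11 to -1.81, and was -1.24 (adjusted p = 0.224) without the 2 libraries rich in hepatocyte transcripts.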

How the results depend on the processing

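No paired analysis was possible because the replicate numbers follow accession order and pair no libraries. Of 193 values of the comparisons under alternatives other than left-out libraries, 174 were counted as kept. Of 624 with 1 library left out, 577 were. Many of these values are counts of called genes, which were kept when similar in size, also at 0 and 0, without a check of direction. Shares and ratios were kept when their direction and side of the threshold stayed. Of the 577, 16 changed sign where neither value passed and are counted as kept. With all 39 libraries in 1 fit, fasting called 0 members in quadriceps on average and 0 after CD, 1 in eWAT after HFD and 4 after CD, the eWAT interaction 1 and juvenile diet in fasted eWAT 1, and 9 of the nuclear genes in place of 43; this fit takes 1 spread for both tissues. Limma voom called 7 members for fasting in quadriceps and 1 after HFD, and 3 for how the fasting response differed by tissue. DESeq2 called 1 for juvenile diet in quadriceps and 2 for that difference. Without a filter on low counts, fasting in quadriceps called 1, the difference 0 and quadriceps against eWAT 33, since more tRNAs were tested. Plain library sizes, or leaving out the 2 libraries rich in hepatocyte transcripts, left 0 calls for the difference; plain sizes also put quadriceps below eWAT for mt-Co2 (-0.90) and mt-Co3 (-0.17). Against eWAT with an epididymal sum of 1000 CPM or less, the share difference was 0.18 (permutation p = 0.286), with mt-Co2 at -1.81, mt-Atp6 at -1.33 and mt-Co3 at -0.81; without the 2 hepatocyte-rich libraries among these it was 0.45 (exact p = 0.0114). By mt-Rnr1 alone, the juvenile diet ratio of rRNA to coding reads in quadriceps was -0.51 (exact p = 0.0480). The cause was not tested where none is given.

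Leaving out 1 library at a time gave 0 to 2 calls for the difference between tissues, 1 to 7 for fasting after CD and 1 to 5 for fasting on average in quadriceps, 19 to 22 for quadriceps against eWAT, and 32 to 43 nuclear genes. The quadriceps fasting difference in share ran from -0.738 to -0.450 points, and the fasting rRNA ratio from 0.27 to 0.41 in quadriceps and 0.25 to 0.42 in eWAT. Depth limits mt-Nd6 and the tRNAs, and mt-Co2, mt-Atp6, mt-Co3, mt-Nd3 and mt-Nd4l share nearly all their sequence with nuclear transcripts, whose effect on their counts was not tested.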

Other observations

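Each coding gene of quadriceps was set against the sum of the other 12 in the same library, in 26 exact permutation tests chosen after seeing the data and given without adjustment. In fasted against fed mice the log2 ratio of mt-Nd2 differed by -0.29 (exact p = 0.000249), by -0.30 after juvenile HFD and -0.28 after juvenile CD. That of mt-Nd4 differed by -0.18 (exact p = 0.0288) and that of mt-Co1 by 0.18 (exact p = 0.0232); among 26 unadjusted tests these 2 are given as values only. For juvenile HFD against CD, the ratio of mt-Nd6 differed by -1.46 (exact p = 0.00213) and that of mt-Nd4l by 0.20 (exact p = 0.0145). The ratio of a gene also moves when the others move, so these values show unequal change and not which gene changed.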
